A study of Mus musculus with 8 samples.

Results

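The 8 genes described here encode liver enzymes that break down coenzyme A or release it from acyl groups. They are the Nudix hydrolases *Nudt7* and *Nudt19* and the acyl-CoA thioesterases *Acot1*, *Acot2*, *Acot3*, *Acot4*, *Acot8* and *Acot12*. They were listed by symbol among the 23282 rows of the count files, and the list was chosen on the levels measured in these same libraries. Their differences between groups are therefore a description. Where a gene is said to pass the threshold, this gives its place in the test run over all rows and is no independent evidence. Each symbol was found on 1 row, all 8 rows lay between rows of genes that neighbour them on the genome, and all 8 passed the filter on low counts.

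Liver tissue came from C57BL/6 mice that the labels give as 4 weeks old and male, and no genetic change was named for any group. The control group received saline, the endotoxemic group received 25 mg/kg of the bacterial endotoxin lipopolysaccharide (LPS) by intraperitoneal injection, and livers were taken 6 h after LPS. For the LGK974 group the labels name LGK974 alone, an inhibitor of Porcupine, the enzyme that Wnt ligands need for secretion. The paper's results give this group 60 mg/kg of LGK974 and the same dose of LPS. Its methods place LGK974 2 h before LPS in most experiments. RNA was counted with QuantSeq, a method that reads transcript 3′ ends, so a count does not scale with transcript length. The control and LGK974 groups had 2 libraries each. The endotoxemic group had 4, of which libraries 3 and 4 repeated the counts of libraries 1 and 2 on every row and were counted once, leaving 6 distinct libraries.

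Coenzyme A carries acyl groups through fatty acid activation, oxidation and synthesis, and the cell holds separate pools in cytosol, mitochondria and peroxisomes. Nudix hydrolases such as NUDT7 cut the cofactor itself, or its acyl form, into phosphopantetheine and an adenine nucleotide. Thioesterases leave the cofactor whole and split an acyl-CoA into a free acid and free coenzyme A. In liver several of these genes are known targets of PPARα, the fatty acid receptor that is active in fasting.

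The total counts of the distinct libraries ranged from 9142116 to 15222439. Levels of the 8 genes are given as CPM, counts relative to library size, with the sizes scaled by the trimmed mean of M values (TMM CPM), with the SD over the 2 libraries of a group. A total of 3 counts, the lowest signal accepted, corresponded to 0.197 to 0.328 CPM. *Lcn2*, which the liver makes in the acute phase, was at 13.8 and 20.2 TMM CPM in the controls, at 3371 and 4677 in endotoxemic livers and at 2839 and 2884 with LGK974. *Alb*, which encodes albumin, was between 22450 and 84850 TMM CPM in all 6. The labels say that all mice were male, yet *Xist* was at 127.8 to 203.6 TMM CPM in the control and endotoxemic libraries and at 0.227 and 0.474 with LGK974. The Y-linked gene *Ddx3y* had 0 counts in all control and endotoxemic libraries and 1755 and 1392 counts in the LGK974 libraries. In every comparison with the LGK974 group, the treatment and this sex-linked difference cannot be told apart. Nothing said that the libraries came from separate mice, so the spread may be technical.

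The promoters of the 5 genes that changed most are shown because these genes were low together in endotoxemia and parted in the LGK974 group. Each line gives the 250 bases before the transcription start, 5′ to 3′, from RefSeq on GRCm38.p6. All 5 genes lie on the plus strand. *Nudt7* (second of 2 RefSeq entries) covers chr8:114133324-114133573, *Acot2* chr12:83987611-83987860, *Acot1* chr12:84009252-84009501, *Acot4* chr12:84038129-84038378 and *Acot12* chr13:91741271-91741520. Capitals mark AGGTCA, the half-site that nuclear receptors read, here on the minus strand and so printed as TGACCT.
Nudt7: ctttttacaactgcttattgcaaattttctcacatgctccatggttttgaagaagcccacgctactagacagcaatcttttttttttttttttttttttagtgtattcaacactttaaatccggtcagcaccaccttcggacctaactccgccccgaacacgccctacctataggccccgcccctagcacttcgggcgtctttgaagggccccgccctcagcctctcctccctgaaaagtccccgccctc
Acot2: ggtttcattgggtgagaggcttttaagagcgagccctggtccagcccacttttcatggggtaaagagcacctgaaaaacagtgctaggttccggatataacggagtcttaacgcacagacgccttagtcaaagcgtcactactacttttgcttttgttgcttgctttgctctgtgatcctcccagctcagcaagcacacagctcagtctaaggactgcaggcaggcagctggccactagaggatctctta
Acot1: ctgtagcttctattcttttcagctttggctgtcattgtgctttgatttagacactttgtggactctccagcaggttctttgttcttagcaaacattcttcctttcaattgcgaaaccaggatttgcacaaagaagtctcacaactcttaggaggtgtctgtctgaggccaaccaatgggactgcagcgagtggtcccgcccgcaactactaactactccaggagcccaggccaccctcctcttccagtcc
Acot4: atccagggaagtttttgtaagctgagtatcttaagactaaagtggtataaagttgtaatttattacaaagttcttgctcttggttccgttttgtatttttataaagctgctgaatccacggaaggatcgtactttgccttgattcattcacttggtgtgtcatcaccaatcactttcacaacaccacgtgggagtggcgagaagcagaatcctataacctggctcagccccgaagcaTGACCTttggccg
Acot12: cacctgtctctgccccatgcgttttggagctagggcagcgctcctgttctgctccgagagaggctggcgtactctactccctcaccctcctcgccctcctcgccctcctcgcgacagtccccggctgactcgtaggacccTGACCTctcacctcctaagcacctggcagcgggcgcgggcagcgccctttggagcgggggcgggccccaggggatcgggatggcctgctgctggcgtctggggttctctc

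AGGTCA was searched on both strands and was found in 14.0% of 32851 RefSeq promoters cut to the same window. *Acot4* held it 13 bases before the start and *Acot12* 110 bases before it, both on the minus strand. In the windows of the other 6 genes these letters did not occur. A direct repeat of AGGNCA spaced by 1 base, the arrangement bound by PPARα and HNF4α, occurred in 0.338% of the promoters and in none of the 8. No pair of those 8 windows shared an identical run of more than 10 bases. This measure does not cover shorter or inexact shared sites.

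In the endotoxemic group, 6 of the 8 genes were lower than in the control group past the adjusted threshold of 0.05 in edgeR's quasi-likelihood test, and 0 were higher. Over all 12701 rows tested, 23.0% were lower and 20.4% were higher. The 6 genes were *Nudt7*, *Nudt19*, *Acot1*, *Acot2*, *Acot4* and *Acot12*. The libraries of the 2 groups did not overlap for any of the 8 genes. The share of all tested rows without overlap was not counted, so nothing is read from this. In the LGK974 group, 3 genes were higher than in the endotoxemic group, *Nudt7*, *Acot2* and *Acot12*, and 0 were lower. Over all rows 2.80% were higher and 2.82% were lower in that comparison. Against the control group, *Nudt19*, *Acot1*, *Acot4* and *Acot12* were lower in the LGK974 group and 0 were higher, where 17.7% of all rows were lower and 16.4% were higher. The median log2 fold change of the 8 genes was −2.64 in endotoxemic against control, 0.67 in LGK974 against endotoxemic and −0.75 in LGK974 against control. All tested rows had medians of 0.01, 0.03 and 0.02. Because the genes were chosen on these values, nothing is read from the shares. The comparisons share libraries, so a low endotoxemic value enters the first and the second alike.

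**Figure D1:**
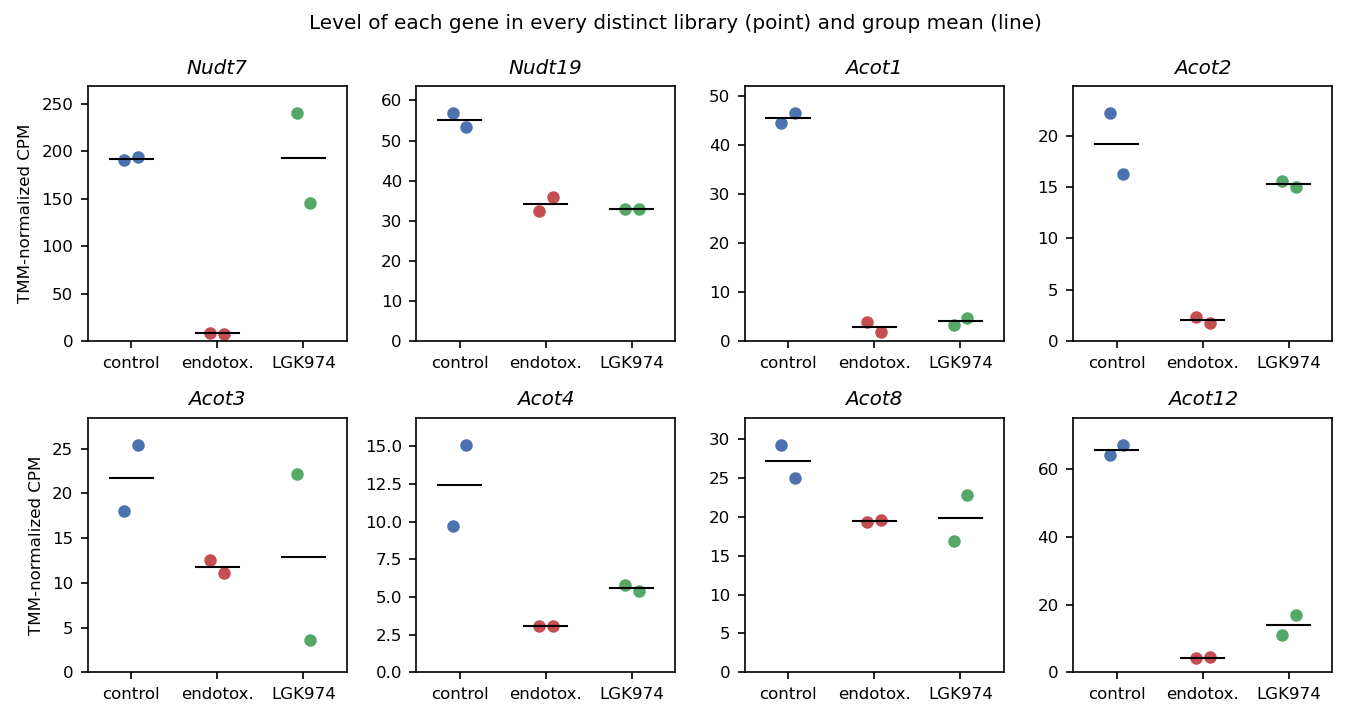
TMM CPM (vertical axes, linear and starting at 0) of each of the 8 genes in the control, endotoxemic and LGK974 groups, where points are the distinct libraries and lines are group means. *Nudt7* falls from 192 to 8.04 and stands at 193 in the LGK974 group, while *Acot1* stands at 4.03 there against 45.4 in the control group.

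*Nudt7*, the peroxisomal hydrolase of coenzyme A and acyl-CoA, had the highest count of the 8 in the control group. Its gene (ENSMUSG00000031767.13) spans chr8:114133557-114154739 and encodes 260 codons in a transcript of 4 exons. It stood at 190.5 and 194 TMM CPM in the controls, at 8.73 and 7.36 in endotoxemic livers and at 240.1 and 145 with LGK974. The LGK974 libraries lay above and below both control libraries, and both endotoxemic libraries were far under the other 4. The endotoxemic mean of 8.04 ± 0.97 TMM CPM (n = 2) was 4.19% of the control mean of 192 ± 2.26. The log2 fold change was −4.58 (SE 0.30, 95% interval −5.25 to −3.91), a level 23.9-fold lower. LGK974 against endotoxemic gave a log2 fold change of 4.58 (SE 0.30, 95% interval 3.91 to 5.25). The LGK974 mean of 193 ± 67.1 TMM CPM was 100.3% of the control mean. The log2 difference from control was 0.00 with a 95% interval of −0.56 to 0.56, so these libraries still allow a difference of that size in either direction. Among the 12119 tested rows in genomic order, the log2 fold change of *Nudt7* ranked 170th from the lowest in endotoxemic against control and 43rd from the highest in LGK974 against endotoxemic.

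*Nudt19* encodes the other peroxisomal Nudix hydrolase of coenzyme A, known best from kidney. Its gene lies on the minus strand at chr7:35547185-35556304. The control libraries were at 56.8 and 53.4 TMM CPM, the endotoxemic libraries at 32.5 and 36.0 and the LGK974 libraries at 32.9 and 33.0. Both treated groups were below the control libraries, and the LGK974 values fell within the range of the endotoxemic ones. The log2 fold change was −0.68 (SE 0.19) in endotoxemic against control and −0.74 (SE 0.19) in LGK974 against control. LGK974 against endotoxemic was −0.06 on the log2 scale, with a 95% interval of −0.49 to 0.37. The count of *Nudt7* was 3.35 and 3.63 times that of *Nudt19* in the control libraries, 0.268 and 0.204 times in endotoxemic livers, and 7.30 and 4.41 times with LGK974. With any 1 of the 4 control and endotoxemic libraries left out, *Nudt19* no longer passed the threshold in endotoxemic against control, at log2 fold changes from −0.76 to −0.55. Without either control library it no longer passed in LGK974 against control, at −0.78 and −0.70.

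*Acot1* and *Acot2* are neighbours on chromosome 12 and encode long-chain acyl-CoA thioesterases of cytosol and mitochondria, respectively. *Acot1* (chr12:84009490-84018371) was at 44.4 and 46.4 TMM CPM in the controls. It was at 3.93 and 1.92 in endotoxemic livers and at 3.32 and 4.74 with LGK974. All 4 libraries of the treated groups lay far below the controls and overlapped each other. Its LGK974 mean was 8.88% of the control mean and its endotoxemic mean 6.44%. The log2 fold change was −3.95 (SE 0.36) in endotoxemic against control and −3.49 (SE 0.34) in LGK974 against control. LGK974 against endotoxemic was 0.47 with a 95% interval of −0.36 to 1.30, and it ranged from 0.04 to 1.04 when 1 endotoxemic library was left out. The lower endotoxemic library rests on 18 counts. The exact 95% binomial interval of that count, 1.17 to 3.11 CPM of the library total, covers counting error only.

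*Acot2* (chr12:83987861-83993873) was at 22.2 and 16.3 TMM CPM in the controls and at 2.29 and 1.71 in endotoxemic livers. The LGK974 libraries were at 15.6 and 15.02, just under the lower control library. The endotoxemic level was 10.4% of the control mean and the LGK974 level 79.5%. Its log2 fold change was −3.26 (SE 0.33) in endotoxemic against control and 2.93 (SE 0.32) in LGK974 against endotoxemic. LGK974 against control gave −0.33 with a 95% interval of −0.94 to 0.29. LGK974 against endotoxemic no longer passed the threshold without endotoxemic library 2, at a log2 fold change of 2.73. The count of *Acot1* was 2.0 and 2.85 times that of *Acot2* in the control libraries, 1.72 and 1.13 times in endotoxemic livers and 0.214 and 0.315 times with LGK974. The order of the neighbours was thus turned only in the LGK974 libraries among the 6.

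*Acot3*, *Acot4* and *Acot8* encode peroxisomal thioesterases. ACOT3 takes medium- and long-chain acyl-CoA, ACOT4 the CoA esters of dicarboxylic acids such as succinate, and ACOT8 a broad range that includes bile acid CoA esters. *Acot4* (chr12:84038379-84048601) was at 9.75 and 15.1 TMM CPM in the controls, 3.06 and 3.09 in endotoxemic livers and 5.81 and 5.41 with LGK974. The 3 groups did not overlap, with the LGK974 group between the others. The log2 fold change was −2.02 (SE 0.35) in endotoxemic against control and −1.15 (SE 0.33) in LGK974 against control. In LGK974 against endotoxemic it was 0.87 (95% interval 0.07 to 1.66) and did not pass the adjusted threshold. Without control library 2, *Acot4* did not pass in LGK974 against control, at −0.79.

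*Acot3* (chr12:84052144-84060402) was at 18.0 and 25.4 TMM CPM in the controls and at 12.6 and 11.1 in endotoxemic livers. The LGK974 libraries were at 22.1 and 3.65, a 6.05-fold gap between libraries of the same group. One LGK974 library was within the control range and the other below both endotoxemic libraries. As fitted over all 6 libraries no comparison passed the threshold, with log2 fold changes of −0.88 (SE 0.63) in endotoxemic against control and 0.12 (SE 0.63) in LGK974 against endotoxemic. The latter was −1.69 and past the threshold without LGK974 library 1, and 0.90 without library 2. LGK974 against control was −0.76, and it was −2.57 and past the threshold without LGK974 library 1 but 0.02 without library 2. Endotoxemic against control did pass in 4 alternatives at log2 fold changes from −0.88 to −0.84, which were the fit to those 2 groups alone, no filter on low counts, and leaving out either LGK974 library. *Acot8* (minus strand, chr2:164792765-164804882) was at 29.2 and 25.0 TMM CPM in the controls, 19.3 and 19.6 in endotoxemic livers and 16.9 and 22.7 with LGK974. The endotoxemic values were 71.7% of the control mean, and the LGK974 libraries lay on either side of them. The log2 fold change of *Acot8* was −0.48 in endotoxemic against control, with a 95% interval of −1.01 to 0.06, and 0.03 in LGK974 against endotoxemic, with an interval of −0.51 to 0.56. LGK974 against control was −0.45, with a 95% interval of −0.98 to 0.08, and it was −0.68 and past the threshold without LGK974 library 2. Endotoxemic against control passed when the repeated libraries were kept as separate samples.

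*Acot12* encodes a cytosolic hydrolase of acetyl-CoA that is found mainly in liver. Its gene spans chr13:91741512-91786148 with 15 exons. It was at 64.3 and 67.3 TMM CPM in the controls, 4.26 and 4.48 in endotoxemic livers and 11.2 and 17.0 with LGK974. The groups did not overlap, and the LGK974 libraries were nearer to the endotoxemic than to the control level. The endotoxemic mean was 6.64% and the LGK974 mean 21.4% of the control mean. The log2 fold change was −3.91 (SE 0.28) in endotoxemic against control, 1.69 (SE 0.27) in LGK974 against endotoxemic and −2.22 (SE 0.25) in LGK974 against control. LGK974 against endotoxemic no longer passed the threshold without endotoxemic library 1 (1.62), without library 2 (1.73) or when only the 2 groups were fitted (1.69), at log2 fold changes close to that over all libraries.

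**Figure D2:**
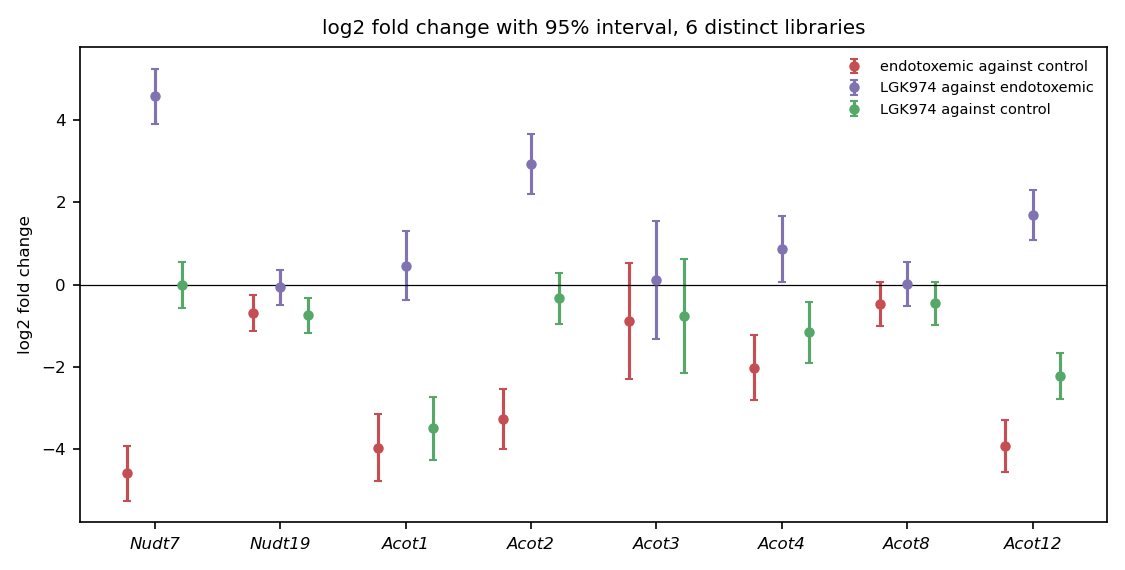
log2 fold change (vertical axis) of each gene in the 3 comparisons, where points are estimates from edgeR and bars are 95% intervals over the 6 distinct libraries. In LGK974 against endotoxemic *Nudt7* is at 4.58, *Acot2* at 2.93 and *Acot12* at 1.69, and the intervals of *Nudt19*, *Acot1*, *Acot3* and *Acot8* cross 0.

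Summed over the 8 genes, the level was 435 and 443 TMM CPM in the controls, 86.6 and 85.3 in endotoxemic livers and 348 and 247 with LGK974. *Nudt7* made up 43.8% of that sum in both control libraries, 10.1% and 8.63% in endotoxemic livers and 69.0% and 58.9% with LGK974. The order of the genes by mean count changed with it. *Nudt7*, *Acot12* and *Nudt19* led in the control group, *Nudt19*, *Acot8* and *Acot3* in the endotoxemic group, and *Nudt7*, *Nudt19* and *Acot8* in the LGK974 group.

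The 4 *Acot* genes on chromosome 12 lie on the plus strand within 64.3 kb from the start of *Acot2* to that of *Acot3*, in the order *Acot2*, *Acot1*, *Acot4*, *Acot3*. *Acot5* and *Acot6* follow, 81.5 and 112.8 kb from the start of *Acot2*. *Acot5* had 0 counts in every library and *Acot6* at most 7, so they were not tested. Among flanking genes, *Numb* on one side (log2 fold change −0.35, adjusted p = 0.535) and *Elmsan1* on the other (0.83, adjusted p = 0.197) did not pass edgeR's test in endotoxemic against control. Farther out, *Ptgr2* fell by 1.45 (adjusted p = 0.00382) and *Entpd5* fell by 2.85 on the log2 scale (adjusted p = 2.4e-05), while *Zfp410* (0.44, adjusted p = 0.29) and *Coq6* (−0.39, adjusted p = 0.374) between them did not pass. The members of the cluster are similar in sequence, which can split reads between copies. In the last 500 bases of their longest coding transcripts, each of the 8 genes had 0 of 451 stretches of 50 bases in a transcript of another of the 8, of *Acot5* or of *Acot6*, and the longest such run was 41 bases, from the end of *Acot2* in *Acot6*. The end of *Acot5* was less distinct, with 58 of 451 stretches in *Acot3* and 6 each in *Acot1* and *Acot2*. Against all GENCODE transcripts, 2 of 451 stretches of *Acot2* and 5 of *Acot4* recurred in another gene, and 0 of those of the other 6. Whether strand was used in counting is not stated. *Acot8* overlaps *Snx21* on the opposite strand, which had at most 41 counts in a library, and *Acot12* overlaps 4833422C13Rik, which had at most 37. *Acot3* and *Acot4* both overlap Gm49366, an annotated coding gene on the same strand, so strand cannot separate their reads from its own. They also overlap the antisense gene 4732463B04Rik, and *Nudt19* overlaps the antisense gene B230322F03Rik. None of these 3 symbols was on a row of the files.

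**Figure D3:**
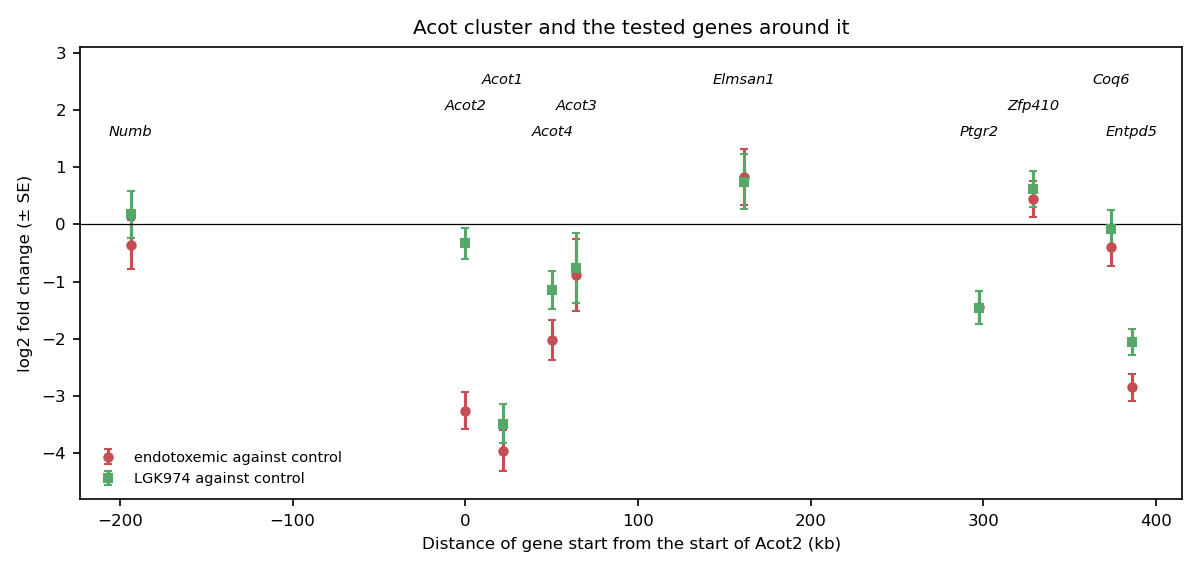
log2 fold change with SE (vertical axis) of the tested genes around the chromosome 12 cluster against the distance of each gene's annotated start from that of *Acot2* in kb (horizontal axis), circles for endotoxemic and squares for LGK974, both against control. *Acot2* and *Acot1*, 21.6 kb apart, are both low in the endotoxemic group (−3.26 and −3.95) and stand at −0.33 and −3.49 in the LGK974 group.

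The counts in the lists that follow stand beside 23.0% of all rows lower and 20.4% higher in endotoxemic against control, and 2.82% and 2.80% in LGK974 against endotoxemic, and no list was tested against that background. Of 7 tested genes of a list of 10 further acyl-CoA thioesterases and relatives, 3 fell and 1 rose in endotoxemic against control by edgeR's quasi-likelihood test, and 0 passed in LGK974 against endotoxemic. The falls were *Them4* (log2 fold change −2.02, adjusted p = 0.00198), *Acot13* (−2.00, adjusted p = 9.45e-05) and *Acot7* (−1.41, adjusted p = 0.00866). *Acot9*, a mitochondrial thioesterase, rose (1.91, adjusted p = 0.0239). *Acot13*, also mitochondrial, was at 253 and 255 TMM CPM in the controls, 61.1 and 65.9 in endotoxemic livers and 61.5 and 84.3 with LGK974. Among 18 tested Nudix genes that are not among the 8, 6 fell and 3 rose in endotoxemia, and 1 rose in LGK974 against endotoxemic. The largest fall was that of *Nudt1*, which clears oxidized nucleotides (−1.97, adjusted p = 0.000447). *Nudt5*, a hydrolase of ADP-ribose, rose (1.51, adjusted p = 0.00741), and *Nudt6* was the one that rose in LGK974 against endotoxemic (1.30, adjusted p = 0.0226).

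Of 12 tested genes for synthesis and transport whose rows lay in genomic order, 4 fell and 0 rose in endotoxemic against control, 2 rose and 1 fell in LGK974 against endotoxemic, and 4 fell and 0 rose in LGK974 against control, where 17.7% of all rows were lower and 16.4% higher. *Pank1*, the pantothenate kinase that opens the pathway, was at 469 and 481 TMM CPM in the controls, 19.4 and 20.3 in endotoxemic livers and 60.5 and 116 with LGK974. Its endotoxemic mean was 4.17% of the control mean, beside 4.19% for *Nudt7*, and its LGK974 mean 18.5%, beside 100.3% for *Nudt7*. The log2 fold changes of *Pank1* were −4.58 in endotoxemic against control (adjusted p = 1.03e-05), 2.15 in LGK974 against endotoxemic (adjusted p = 0.00668) and −2.43 in LGK974 against control (adjusted p = 0.000264). *Coasy*, the last enzyme of the pathway, fell by 2.93 (adjusted p = 5.42e-05) and rose by 1.21 in LGK974 against endotoxemic (adjusted p = 0.0365). *Slc25a42*, the mitochondrial carrier of coenzyme A, fell by 2.75 on the log2 scale (adjusted p = 0.000275) and was at −0.36 in LGK974 against endotoxemic (adjusted p = 0.599). *Vnn3*, a pantetheinase gene, fell in LGK974 against endotoxemic (−0.81, adjusted p = 0.0471). The row named *Vnn1* lay out of genomic order and is left out of these counts.

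Genes that load acyl groups onto coenzyme A or oxidize them in peroxisomes were mostly lower in endotoxemia. Of 14 tested acyl-CoA synthetases 11 fell and 0 rose, with a median log2 fold change of −1.42. *Acsl1*, the main long-chain synthetase of liver, fell by 5.28 (adjusted p = 1.68e-06), rose by 1.52 in LGK974 against endotoxemic (adjusted p = 0.00931), and *Acsl4* rose by 0.85 there (adjusted p = 0.0428). Of 20 tested genes of peroxisomal acyl-CoA metabolism 16 fell and 0 rose, with a median of −1.88. The deepest falls were *Abcd2*, a peroxisomal acyl-CoA transporter (−6.64, adjusted p = 2.85e-05), *Hacl1* of alpha-oxidation (−3.80, adjusted p = 1.36e-05) and *Crot*, the carnitine octanoyltransferase (−3.75, adjusted p = 4.12e-06). In LGK974 against endotoxemic 2 of the 20 rose, *Hacl1* (1.77, adjusted p = 0.00931) and *Abcd3* (0.82, adjusted p = 0.0443).

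*Ppara* itself was at 293 and 360 TMM CPM in the controls, 12.9 and 16.0 in endotoxemic livers and 61.4 and 132 with LGK974. It fell by 4.50 on the log2 scale in endotoxemic against control (adjusted p = 2.63e-05), rose by 2.74 in LGK974 against endotoxemic (adjusted p = 0.00514), and was at −1.76 in LGK974 against control (adjusted p = 0.00349). Of 24 tested genes of a list of PPARα, its partners and targets in genomic order, 17 fell and 1 rose in endotoxemic against control, and 6 rose and 0 fell in LGK974 against endotoxemic. *Plin2*, a lipid droplet coat protein, rose by 1.05 in endotoxemia (adjusted p = 0.00326). These lists share no gene with the 8, while the peroxisomal and PPARα lists have some genes in common.

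**Figure D4:**
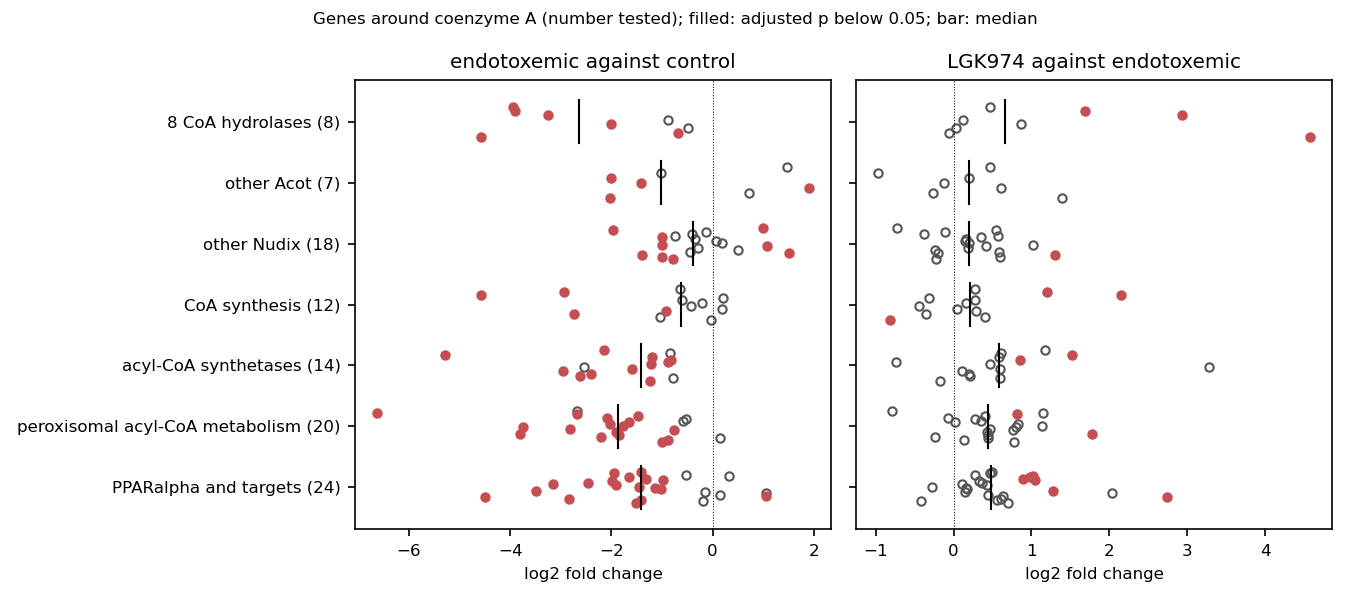
log2 fold change (horizontal axes) of the 8 genes and of the tested genes of 6 lists (further thioesterases, further Nudix genes, coenzyme A synthesis, acyl-CoA synthetases, peroxisomal genes, PPARα and targets) whose rows lay in genomic order, in endotoxemic against control and in LGK974 against endotoxemic, where filled points passed an adjusted p of 0.05 and bars are medians. Most acyl-CoA synthetases (11 of 14) and peroxisomal genes (16 of 20) fell in endotoxemia, while in LGK974 against endotoxemic *Nudt7* stands farthest to the right of the genes plotted, at 4.58.

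Cell type markers moved as well. Summed over 6 hepatocyte markers in genomic order, the level was 103200 and 74550 CPM in the controls, 47560 and 31350 in endotoxemic livers and 35030 and 33230 with LGK974. Of these 6 genes, 5 fell in endotoxemic against control (median log2 fold change −1.33) and 0 passed in LGK974 against endotoxemic. In bulk tissue, fewer hepatocytes and less RNA per hepatocyte cannot be told apart. Markers of neutrophils and monocytes, 3 genes in genomic order, summed to 1.99 and 2.89 CPM in the controls, 26.3 and 41.4 in endotoxemic livers and 18.2 and 19.2 with LGK974. Of 5 Kupffer cell markers 2 fell and 1 rose in endotoxemic against control, of 6 sinusoidal endothelial markers 3 fell and 1 rose, of 4 stellate cell markers 3 fell and 1 rose, and of 4 cholangiocyte markers 1 fell. These include rises of *Marco* (log2 fold change 3.70) and *Lyve1* (3.03) and falls of *Clec4g* (−3.49) and *Lrat* (−2.93), named after their values were seen. The 1 lymphocyte marker tested did not pass. In LGK974 against endotoxemic, 1 Kupffer cell marker (*Clec4f*, −1.30, adjusted p = 0.0187) and 1 endothelial marker (*Clec4g*, −2.19, adjusted p = 0.0163) fell by edgeR's test, and 0 markers of the other cell types in genomic order passed. Over all rows 23.0% were lower and 20.4% higher in endotoxemic against control. In LGK974 against endotoxemic 2.82% were lower and 2.80% higher. The part of cell composition in the values of the 8 genes was not tested. Of 6 sex-linked genes, 0 passed in endotoxemic against control, and 4 rose and 2 fell in LGK974 against endotoxemic. Over 11 genes with female-biased expression in liver, the summed level was 1229 and 1324 CPM in the controls, 139.7 and 142.2 in endotoxemic livers and 4.13 and 4.87 with LGK974. Over 10 male-biased genes it was 549 to 835 CPM in the control and endotoxemic libraries and 7984 and 5237 with LGK974.

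The 8 genes parted in the LGK974 group, from 8.88% of the control mean for *Acot1* to 100.3% for *Nudt7*. Their mean profile, the mean of standardized log2 values over the 6 libraries, therefore averages unlike patterns. This mean profile was compared with all other tested rows in genomic order. The 5 most alike by Pearson's r were *Got2* (0.999), *Adk* (0.999), *Akr7a5* (0.998), *Cobll1* (0.998) and *Ndufb10* (0.998), where libraries of a group share their treatment and r is a description. *Got2*, the mitochondrial aspartate aminotransferase, was at 416 and 425 TMM CPM in the controls, 145 and 142 in endotoxemic livers and 211 and 199.8 with LGK974.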

How the data were processed

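The authors sequenced liver RNA by QuantSeq and deposited the number of reads per gene symbol for 8 libraries as raw counts without normalization. The submitters' processing notes name Bowtie2, edgeR and mm10 without versions or roles, and the counting program is not given in the sources used here. Total counts ranged from 9142116 to 15222439, which bears on the precision of each value. Binomial intervals and the lowest accepted signal cover counting error only, whereas intervals of fold changes include the spread between libraries.

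Libraries with the same count on every row were taken once, leaving 2 per group. The analysis used edgeR 4.0.16 in R 4.3.3. Rows were filtered with filterByExpr by group and scaled by TMM, and 1 quasi-likelihood model over the 3 groups was fitted to 12701 rows. Each comparison was tested with the quasi-likelihood F test, Benjamini-Hochberg adjusted at 0.05. SE is the log2 fold change divided by the square root of F, and 95% intervals use the degrees of freedom of that test. Sums over marker lists and the lowest signal are CPM of the library total.

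Rows were compared with RefSeq positions on GRCm38, and a row was out of order when its gene lay more than 2 Mb from its ordered neighbours (526 rows). Rows out of order were left out of the list counts. Gene models came from GENCODE M21 (GRCm38) and promoters from RefSeq (GRCm38.p6), where all 8 symbols matched.

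The 8 genes, the lists and the tests were chosen with earlier results of these data known. From each list the 3 largest rises and falls among called genes in genomic order could be named, along with all genes of the *Acot* and coenzyme A synthesis lists, the 5 rows most alike in pattern, and check genes. Alternatives were DESeq2 1.42.0, no TMM factors, other filters, the 2 groups alone, the repeated libraries kept, a replicate block, reassigned or omitted rows, and each library left out. Same-numbered libraries correlated at −0.019 to 0.233 in their deviations, and nothing in the labels pairs them, so the model without a block was kept.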

Additional observations from a re-analysis of the deposited data

How the results depend on the processing

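In endotoxemic against control, *Nudt7*, *Acot1*, *Acot2*, *Acot4* and *Acot12* were lower and past the threshold in 15 of 15 alternatives. In LGK974 against endotoxemic, *Nudt7* was higher and past it in 15 of 15, *Acot2* in 14 and *Acot12* in 12. The count of rows called in LGK974 against endotoxemic, 714 as reported, was 1231 with DESeq2, 1705 with no filter on low counts, 269 with only the 2 groups fitted and 3259 with the repeated libraries kept as separate samples. Leaving out each library in turn gave 49 to 2242 rows there. In endotoxemic against control it gave 3432 to 6719 rows, where 5513 were reported with all libraries, and in LGK974 against control 2372 to 5369, where 4328 were. Of the 8 genes, 1 to 3 were then higher and 0 to 1 lower in LGK974 against endotoxemic, and 2 to 5 were lower in LGK974 against control. The lowest of these counts came without endotoxemic library 2 and without control library 2, and the 1 lower gene was *Acot3* without LGK974 library 1. The causes were not tested.

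With the replicate block, 5485, 685 and 4307 rows were called in the 3 comparisons, and the counts of the 8 genes stayed at 6 lower, 3 higher and 4 lower. Depth limits *Acot1*, *Acot2* and *Acot4*, which had 16 to 36 counts in the endotoxemic libraries. With 2 distinct libraries a group, the call of a small difference such as that of *Acot8* depends on the libraries used.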
